A study of Mus musculus with 7 samples.

Results

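The genes described here are the G1 cyclins and CDK inhibitors of the mouse. They comprise the D-type cyclins Ccnd1, Ccnd2 and Ccnd3, the E-type cyclins Ccne1 and Ccne2, the CIP/KIP inhibitors Cdkn1a and Cdkn1b, and the INK4 inhibitors Cdkn2a, Cdkn2b and Cdkn2c. The 10 members were found by symbol among the 55484 genes of the count table, and all 10 had enough counts to be tested. RNA was measured in 4 libraries of mouse embryonic fibroblasts (MEFs), which are differentiated cells grown from embryos, and in 3 libraries of mouse embryonic stem cells (mESCs), which are pluripotent cells of the early embryo. The study names a C57/Bl6 background for its MEFs and mESCs, where it describes the preparation of its chromatin accessibility libraries. It describes the RNA data as a set that its laboratory already held, and no treatment was named. Passage, growth conditions and sex of the cells were not given in the sources used here. The study calls its samples biological replicates, but its figure legends count fewer MEF samples than the table holds, and what separates the replicates of a cell type was not spelled out. The p-values measure the spread between these libraries.

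G1 is the phase of the cell cycle in which a cell responds to growth factors before it commits to DNA replication. D-type cyclins bind CDK4 and CDK6, E-type cyclins bind CDK2, and both kinds of kinase phosphorylate the RB proteins, which releases the E2F factors. INK4 proteins bind CDK4 and CDK6, whereas CIP/KIP proteins bind cyclin-CDK complexes more broadly. Mouse ES cells are known for a short G1 phase and low D-type cyclin levels, and cultured fibroblasts for building up inhibitors of the INK4 locus.

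Promoter sequences, given for reference beside the results on these genes, are shown for the INK4 locus, where a gene that fell has a neighbour that did not pass the test, and for Ccne1, the only member that passed the test with a higher level in mESCs. Cdkn2a (chromosome 4 of GRCm38, 89274471 to 89294653) and Cdkn2b (chromosome 4, 89306299 to 89311039) lie on the same strand with 11645 bases between them. Cdkn2a has an upstream start, used by the transcript of p19Arf, and a downstream start, used by that of p16Ink4a. The sequences are from RefSeq on GRCm38.p6, cover 250 bases before and 50 after each start, and are written 5′ to 3′ on the minus strand. Capitals mark motifs found by a search of both strands. The first is the GC box, spelled GGGCGG and bound by SP1. The next, spelled as in its name, is the CCAAT box bound by NF-Y. The last is the E2F site, taken as TTTCCCGC, TTTCGCGC, TTTGCCGC or TTTGGCGC.
Cdkn2b, chr4:89310983-89311282: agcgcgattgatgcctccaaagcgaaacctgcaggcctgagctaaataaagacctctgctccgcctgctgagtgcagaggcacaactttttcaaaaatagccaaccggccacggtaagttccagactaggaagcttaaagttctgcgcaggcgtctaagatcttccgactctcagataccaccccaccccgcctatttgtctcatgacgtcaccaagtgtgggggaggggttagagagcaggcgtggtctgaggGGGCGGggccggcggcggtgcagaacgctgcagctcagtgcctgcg
Cdkn2a upstream start, chr4:89294570-89294869: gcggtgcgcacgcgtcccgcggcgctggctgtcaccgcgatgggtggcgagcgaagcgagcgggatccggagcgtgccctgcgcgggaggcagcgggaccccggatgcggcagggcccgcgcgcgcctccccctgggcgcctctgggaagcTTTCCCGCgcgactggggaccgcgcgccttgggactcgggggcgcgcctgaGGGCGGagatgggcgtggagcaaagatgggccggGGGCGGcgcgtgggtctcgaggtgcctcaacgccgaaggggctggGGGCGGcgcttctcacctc
Cdkn2a downstream start, chr4:89282143-89282442: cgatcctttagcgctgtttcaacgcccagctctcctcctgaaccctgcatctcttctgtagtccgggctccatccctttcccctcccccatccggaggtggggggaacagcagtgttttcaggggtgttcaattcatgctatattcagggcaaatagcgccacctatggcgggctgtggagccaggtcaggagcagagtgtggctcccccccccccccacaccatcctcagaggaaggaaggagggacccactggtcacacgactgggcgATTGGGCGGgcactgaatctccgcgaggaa
Ccne1, chr7:38107441-38107740: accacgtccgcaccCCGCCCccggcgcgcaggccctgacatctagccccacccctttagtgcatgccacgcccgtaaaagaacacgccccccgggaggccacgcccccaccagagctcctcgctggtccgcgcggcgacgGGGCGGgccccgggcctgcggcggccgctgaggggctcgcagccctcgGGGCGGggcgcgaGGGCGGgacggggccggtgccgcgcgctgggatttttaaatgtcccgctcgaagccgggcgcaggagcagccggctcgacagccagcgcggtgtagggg
The upstream promoter of Cdkn2a held 3 GC boxes and 1 E2F site, and its downstream promoter held 1 GC box that overlaps 1 CCAAT box by its letters. Cdkn2b held 1 GC box and Ccne1 held 4. Of all 32851 promoters of the same length, 35.7% held a GC box, 37.4% a CCAAT box and 2.26% an E2F site. These matches describe letters in the window and no factor was measured at them. Promoters were matched for 7 of the 10 members, and Ccnd1, Ccnd2 and Ccne2 had no entry.

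Library totals ran from 6528643 to 11441278 counts on genes. Levels are given as CPM, counts scaled to a common library size, on library sizes scaled by edgeR's TMM method, or as log2CPM with a prior count of 2, and values of single libraries are listed from the deepest to the shallowest of each cell type. The groups went with their labels: 9 of the 10 pluripotency markers were tested and all 9 were higher in mESCs, while all 10 fibroblast markers were lower. The untested marker, Fut4, had at most 13 counts in a library, and its mean MEF level was 143% of its mESC level. The 10 fibroblast markers summed to between 23161 and 40246 CPM in MEFs and to between 162 and 188 CPM in mESCs. In mESCs each of these markers kept between 0.452% and 16.6% of its MEF level, with a median of 1.08%. Blood cell markers summed to at most 92.3 CPM in MEFs and 62.9 in mESCs, and endothelial markers to at most 13.1 and 45.7. The 4 keratinocyte markers did not pass the test and summed to between 118 and 147 CPM in MEFs and between 114 and 141 in mESCs. The MEF libraries of 9176467 and 6528643 counts differed from the other pair of MEF libraries in Y-linked genes, with at least 22.9 CPM of Eif2s3y against at most 0.305 CPM, and in the fibroblast marker Dcn, with at least 467 against at most 149 CPM. The same pairs did not overlap for Ccnd1, Ccne2, Cdkn1a, Cdkn2b and Cdkn2c, which were lower in the Y-positive pair, or for Ccnd3, which was higher in it. The share of all tested genes that separate these pairs was not counted, so the members have no background to be read against. What part the difference between the pairs has in the results was not tested. In bulk RNA, fewer cells that express a gene and less RNA of it per cell cannot be told apart.

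Of the 10 members, 7 passed the test between the cell types, with 6 lower and 1 higher in mESCs by edgeR's quasi-likelihood test at an adjusted p under 0.05, where p-values were adjusted by Benjamini and Hochberg's method over the 16580 genes tested. Ccnd1, Ccnd2, Ccne2, Cdkn1a, Cdkn2b and Cdkn2c were lower and Ccne1 was higher, while Ccnd3, Cdkn1b and Cdkn2a did not pass. Among all tested genes 47.9% passed, with 22.8% higher and 25% lower. The median log2 fold change was -1.24 over the members and 0.04 over all tested genes. Against a fold change of 2, Ccnd1, Ccnd2, Cdkn1a and Cdkn2b passed, 4 of 10 members, where 24.1% of all tested genes passed. MEF and mESC levels did not overlap for 9 of the 10 members, against 52.1% of all tested genes, and Cdkn1b was the exception. On library sizes alone, Ccne2 and Cdkn2a overlapped as well, so that 7 of the 10 members were separate, against 55.3% of all tested genes (a scale added after the values were seen). Library size scaling alone, without TMM, raised the median of all genes by 0.28 on the log2 scale, and the direction of each member stayed as in the fit with TMM.

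**Figure D1:**
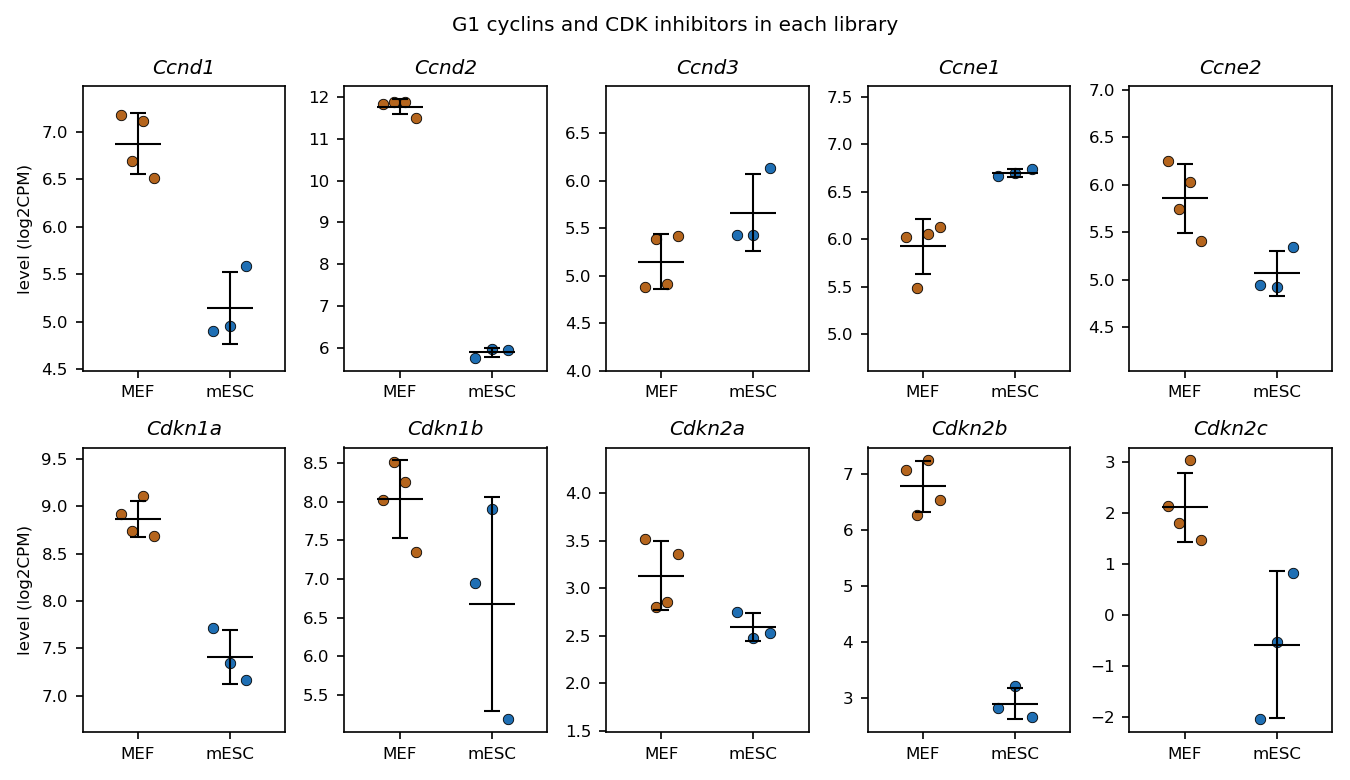
Level of each member in log2CPM (vertical axes of different ranges, 1 panel per gene) in the 4 MEF and 3 mESC libraries, points placed from the deepest library on the left to the shallowest on the right, with the mean and SD in black. Ccnd2 drops from between 2895 and 3778 CPM to between 54.1 and 62.3 CPM, Ccne1 lies higher in every mESC library, and Cdkn1b spreads widely among the 3 mESC libraries.

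Ccnd2 showed the largest difference of the members. Cyclin D2 is the D-type cyclin that many growth factor and hormone signals raise. Ccnd2 (chromosome 6, 127125162 to 127152193) held 3609, 3743, 3778 and 2895 CPM in the MEF libraries and 54.1, 62.3 and 62.1 CPM in the mESC libraries. All MEF libraries were thus far above all mESC libraries, and neither group spread widely. The level was 59.0-fold lower in mESCs, or a log2 fold change of -5.88 with an SE of 0.158 (edgeR, adjusted p = 5.95e-09). The mESC level was 1.70% of the MEF level, within the range given above for the share that fibroblast markers kept in mESCs. Cdkn2b and Cdkn2c, described below, kept 6.48% and 14.9%, also within that range. Whether fibroblast RNA or reads contribute to the mESC counts of Ccnd2, Cdkn2b and Cdkn2c was not tested.

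Ccnd1 encodes cyclin D1, the classical D-type cyclin induced by mitogens through the RAS and MAPK pathway. Ccnd1 (chromosome 7, 144929931 to 144939925) held 144, 104, 138 and 90.8 CPM in MEFs against 29.7, 30.8 and 47.7 CPM in mESCs. The groups did not overlap, and the highest mESC value came from the library of 7462710 counts. Its level fell by 1.72 on the log2 scale, 3.31-fold with an SE of 0.239 (edgeR, adjusted p = 0.000162).

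Ccnd3, which encodes the third D-type cyclin and is broadly expressed, lay in the opposite direction without passing the test. Ccnd3 (chromosome 17, 47505051 to 47599691) held 29.3, 41.6, 29.9 and 42.6 CPM in MEFs and 42.8, 42.9 and 70.3 CPM in mESCs. The highest MEF and the lowest mESC library thus nearly touched, and the mESC library of 7462710 counts was again the highest. The log2 fold change was 0.54, with a 95% interval from 0.02 to 1.06 (unadjusted p = 0.0437, adjusted p = 0.0827, edgeR). It was 0.25 without that library, and with library size scaling alone it was 0.82 and passed the test (adjusted p = 0.0162, edgeR).

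The E-type cyclins moved in opposite directions. Cyclin E1 and cyclin E2 both activate CDK2 at the start of DNA replication. Ccne1 (chromosome 7, 38097984 to 38107534) held 64.7, 44.7, 66.3 and 70.0 CPM in MEFs and 101, 103 and 107 CPM in mESCs. Every mESC library was above every MEF library, and the mESC libraries lay within 1.05-fold of each other. Ccne1 rose 1.69-fold, or by 0.76 on the log2 scale with an SE of 0.175 (edgeR, adjusted p = 0.00463).

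Ccne2 (chromosome 4, 11191351 to 11204779) held 75.7, 53.3, 65.2 and 42.1 CPM in MEFs and 30.5, 30.1 and 40.3 CPM in mESCs. The groups came close, at 42.1 and 40.3 CPM, without overlapping on this scale, and overlapped on library sizes alone. Ccne2 fell by 0.81 on the log2 scale with an SE of 0.225 (edgeR, adjusted p = 0.0120). The call was lost with library size scaling alone, where the log2 fold change was -0.53 (adjusted p = 0.0660, edgeR), and without the mESC library of 8193825 counts, where it was -0.75 (adjusted p = 0.0507, edgeR).

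The counts of Ccnd1, Ccnd3 and Ccne2 carry an uncertainty of annotation. Per the preparation text of the labels, which also names blood stem cells and was taken to apply here, the libraries were biased towards the 3′ ends of transcripts, and the strand setting of the counting was not given in the sources used here. At the 3′ end of Ccnd1, all of the last 500 exonic bases overlap exons of LTO1 on the opposite strand. The overlap takes 361 of the last 500 exonic bases for Ccnd3, with Bysl, and 304 of 500 for Ccne2, with Ints8. Counts per library ran from 43 to 172 for LTO1, from 84 to 262 for Bysl and from 33 to 221 for Ints8. Ccnd2 and Cdkn1a overlap exons of other genes outside their last 500 exonic bases. Ccne1, Cdkn1b, Cdkn2a, Cdkn2b and Cdkn2c overlap no exon of another annotated gene and share no 50-base sequence with one.

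**Figure D2:**
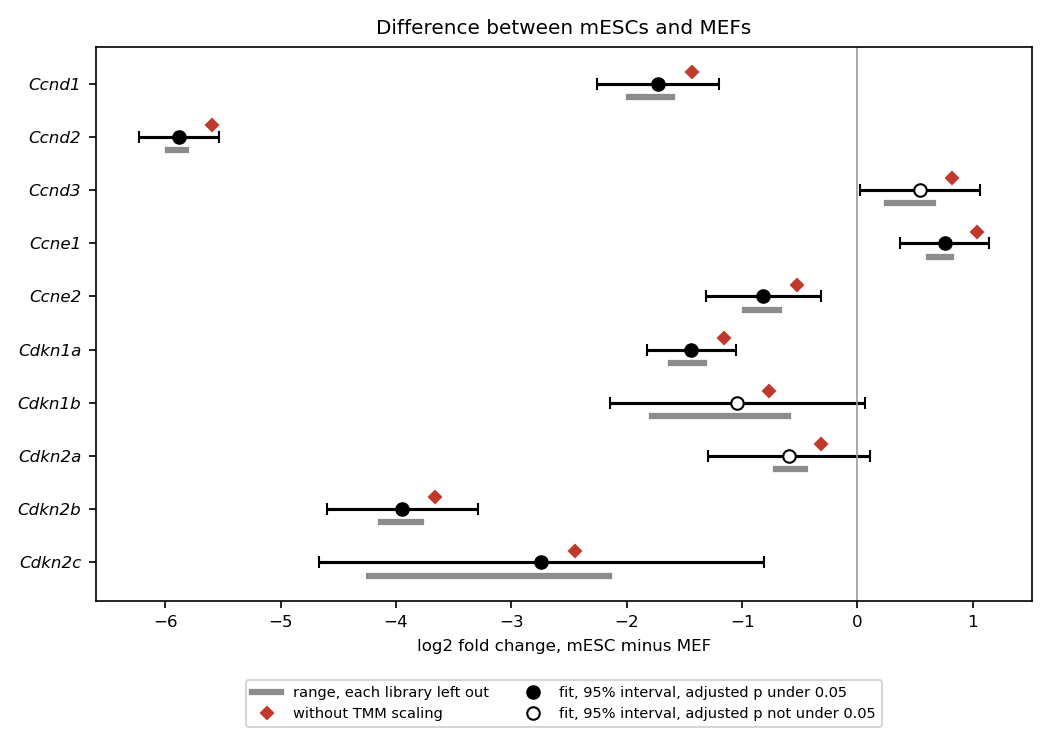
Log2 fold change of each member, mESC minus MEF (horizontal axis), with its 95% interval from edgeR, filled where the adjusted p is under 0.05; grey bars give the range over the 7 fits that each leave out one library and red diamonds the fit without TMM scaling. Ccnd2 at -5.88 and Cdkn2b at -3.94 lie farthest from 0, and the intervals of Cdkn1b and Cdkn2a cross 0.

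Ratios of members counted in the same library do not depend on how libraries are scaled. They are given as a description without a test, as the log2 ratio of counts after adding 2 counts to each gene, and the text compares how a ratio differs between cell types and not the levels of different genes. The ratio of Ccnd1 to Ccnd2 lay between -5.17 and -4.64 in MEFs and between -1.01 and -0.38 in mESCs, a difference of 4.14. Ccnd2 over Ccnd3 showed the widest shift of these pairs, from 6.08 to 6.97 in MEFs down to between -0.18 and 0.53 in mESCs. Relative to Ccnd3, Ccnd1 was also lower in mESCs, with a log2 ratio of 1.09 to 2.29 in MEFs and of -0.56 to -0.48 in mESCs. Across the types, the ratio taken was Ccnd1 over Ccne1, which differed by -2.50 between mESCs and MEFs. It does not stand for the D and E types as a whole, since Ccnd3 had a higher and Ccne2 a lower mean in mESCs. Within the E-type pair, Ccne1 over Ccne2 lay between -0.25 and 0.73 in MEFs and between 1.40 and 1.77 in mESCs. None of these 5 cyclin ratios overlapped between the cell types, but they share genes and are not independent. The share of all gene pairs that would be separate was not counted. Of single tested genes, 52.1% were separate.

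**Figure D3:**
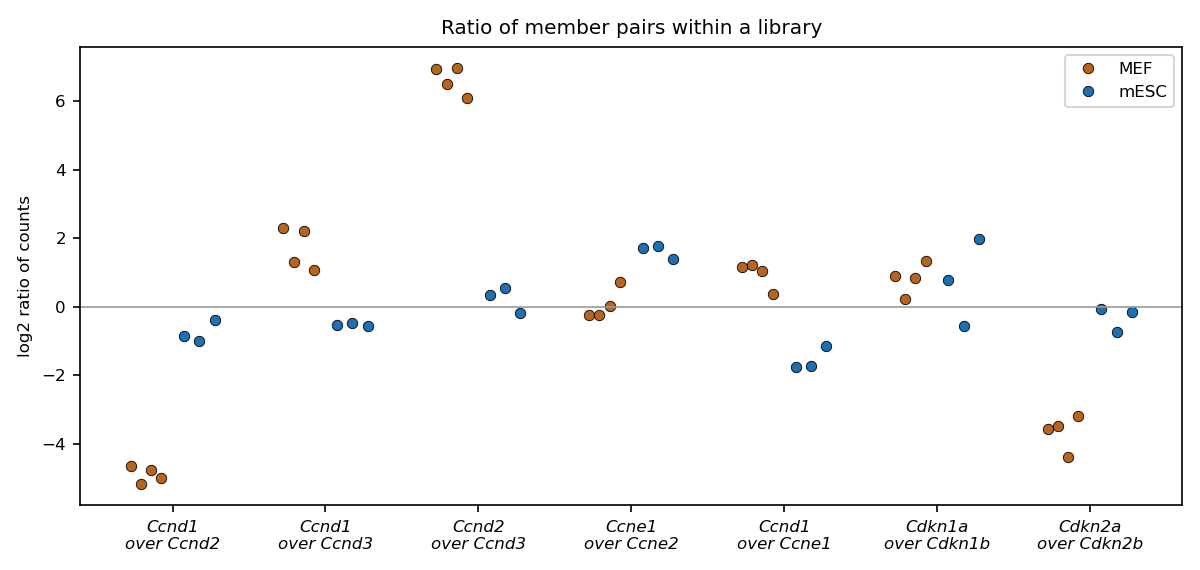
Log2 ratio of the counts of member pairs within each library (vertical axis; 2 counts added to each gene), MEF in brown and mESC in blue, points placed from the deepest library to the shallowest. Cell types are separate for all pairs shown except Cdkn1a over Cdkn1b, where the mESC libraries run from -0.56 to 1.99. The share of all gene pairs that would be separate was not counted.

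Of the CIP/KIP inhibitors, Cdkn1a fell and Cdkn1b did not pass the test. Cdkn1a encodes p21, the inhibitor that p53 induces after DNA damage. Cdkn1a (chromosome 17, 29090976 to 29100727) held 481, 428, 550 and 410 CPM in MEFs against 211, 163 and 143 CPM in mESCs. No library of one cell type reached the other. The level was 2.71-fold lower in mESCs, a log2 fold change of -1.44 with an SE of 0.172 (edgeR, adjusted p = 5.86e-05).

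Cdkn1b encodes p27, an inhibitor of cyclin E-CDK2 that accumulates in resting cells. Cdkn1b (chromosome 6, 134920401 to 134925513) held 260, 366, 306 and 163 CPM in MEFs and 123, 240 and 36.0 CPM in mESCs. The mESC libraries spread over a 6.63-fold range, and the middle one of them in depth lay inside the MEF range. That range, 2.73 in log2CPM, was larger than the mESC range of 99.6% of the 2447 tested genes within 1 log2CPM of its mESC mean. The log2 fold change was -1.04, with a 95% interval from -2.14 to 0.06 (adjusted p = 0.111, edgeR). It was -0.60 (adjusted p = 0.190, edgeR) without the mESC library of 7462710 counts and -1.78 (adjusted p = 0.0132, edgeR) without that of 8057985 counts. With no filter beyond 1 count it passed at -1.07 (adjusted p = 5.58e-08, edgeR). The counts of Cdkn1b were the same there and the cell types overlapped, so this pass is not taken as a result.

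The mESC library of 7462710 counts held the lowest mESC values of Cdkn1a, Cdkn1b and Cdkn2b. It held the highest of Ccnd1, Ccnd3, Ccne1, Ccne2 and Cdkn2c, and lay between the others for Ccnd2 and Cdkn2a. Among so few libraries, each is the highest or lowest for many genes. This library also held 27.7 CPM of the Y-linked gene Eif2s3y, against 0.217 and 0.682 CPM in the other mESC libraries. The Y-linked genes Ddx3y and Kdm5d were at 6.72 and 1.42 CPM in it, above the other mESC libraries but below the Y-positive MEF pair, which held at least 48.3 and 12.1 CPM. Of all tested genes, 963 lay more than 2-fold outside the other mESC libraries in this library, while the other mESC libraries had 807 and 912 such genes. What part this library's difference has in the levels of the members was not tested.

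Of the INK4 genes, Cdkn2b and Cdkn2c fell in mESCs and Cdkn2a did not pass the test. Cdkn2b encodes p15Ink4b, which TGF-beta signalling induces. Cdkn2b held 134, 76.3, 151 and 92.9 CPM in MEFs and 6.83, 9.09 and 6.13 CPM in mESCs. The lowest MEF library was thus well above the highest mESC library. The level was 15.4-fold lower, a log2 fold change of -3.94 with an SE of 0.295 (edgeR, adjusted p = 2.03e-06).

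Cdkn2a, the neighbour of Cdkn2b, encodes p16Ink4a, which inhibits CDK4 and CDK6, and p19Arf, which stabilises p53. Both transcripts share their downstream exons, and a gene count does not tell them apart. Cdkn2a held 11.2, 6.71, 7.01 and 10.0 CPM in MEFs and 6.50, 5.34 and 5.55 CPM in mESCs, from 46 to 117 counts per library. The groups lay side by side, with 6.71 and 6.50 CPM as the nearest values. Its log2 fold change of -0.59 had a 95% interval from -1.30 to 0.11 (adjusted p = 0.152, edgeR). Cdkn2a over Cdkn2b, in counts of the same library, moved from between -4.37 and -3.17 on the log2 scale in MEFs to between -0.74 and -0.07 in mESCs, with no overlap.

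Cdkn2c encodes p18Ink4c and was the least counted member. Cdkn2c (chromosome 4, 109660876 to 109667189) had 43, 27, 52 and 16 counts in MEFs and 0, 4 and 13 counts in mESCs, or 4.13, 3.24, 7.93 and 2.54 CPM against 0, 0.454 and 1.53 CPM. The value of 0 allows up to 3 counts, or 0.366 CPM of that library's total, as counting error alone. Its counts in MEFs took it past the filter on low counts. Its log2 fold change was -2.74 with an SE of 0.870 (edgeR, adjusted p = 0.0235). The call was lost without the MEF library of 7312679 counts (adjusted p = 0.0559, edgeR) or the mESC library of 8057985 counts (adjusted p = 0.0762, edgeR), and the log2 fold change was -4.23 without the mESC library of 7462710 counts.

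Two-sided exact permutation tests of the log2CPM means, with 35 ways to split the libraries, gave p = 0.0286, the smallest that this design allows, for Ccnd1, Ccnd2, Ccne1, Cdkn1a, Cdkn2b and Cdkn2c. The same test gave p = 0.0571 for Ccne2, p = 0.0857 for Cdkn1b and for Cdkn2a, and p = 0.143 for Ccnd3 (exact permutation tests).

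The other genes of the pathway were read from 8 lists with 89 genes, of which 86 were tested and 52 passed, 30 higher and 22 lower in mESCs, where 47.9% of all tested genes passed, 22.8% higher and 25% lower. With library size scaling alone 62 passed, 44 higher and 18 lower. Both kinase partners of the D-type cyclins, Cdk6 and Cdk4, fell in mESCs. Cdk6 held 290 ± 102 CPM in 4 MEF libraries and 66.3 ± 6.93 CPM in 3 mESC libraries (mean ± SD), a log2 fold change of -2.13, and Cdk4 had a log2 fold change of -0.85. Cdk2, the partner of the E-type cyclins, had a log2 fold change of -0.32 and did not pass (adjusted p = 0.422, edgeR). In the CDK-activating kinase, which phosphorylates all of these kinases, Cdk7 fell by 0.68 and Mnat1 rose by 0.45 on the log2 scale, while Ccnh had 0.45 and did not pass (adjusted p = 0.0734, edgeR). Of these 6 genes of kinases and their subunits, 4 passed, with Mnat1 higher and Cdk4, Cdk6 and Cdk7 lower. Without the mESC library of 8057985 counts 2 passed, Cdk4 and Cdk6.

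Both remaining CDK inhibitors passed with a lower level in mESCs, where 47.9% of all tested genes passed, 25% lower. Cdkn1c, the imprinted CIP/KIP gene that encodes p57, held 706, 2178, 857 and 2318 CPM in MEFs and 31.4, 20.3 and 43.3 CPM in mESCs. Its MEF libraries formed a higher and a lower pair, both far above mESCs. The higher pair was the Y-positive pair described above. The log2 fold change was -5.58 with an SE of 0.525 (edgeR, adjusted p = 1.05e-05). Whether fibroblast RNA or reads contribute to the Cdkn1c counts of mESCs was not tested. Cdkn2d, which encodes p19Ink4d, fell by 0.92 on the log2 scale (adjusted p = 0.00597, edgeR).

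Most of the listed genes of DNA replication and mitosis lay higher in mESCs than in MEFs. Of 12 proliferation genes 10 passed, all 10 higher, where 47.9% of all tested genes passed, 22.8% higher. Cdt1, which licenses replication origins, had a log2 fold change of 2.04, the helicase subunit Mcm7 1.94 and Mcm3 1.54. Mki67 and Rrm2 did not pass, with 0.27 and -0.05 (adjusted p = 0.226 and 0.926, edgeR). Among the cyclins of S phase and mitosis with Cdk1, 5 of 7 genes were tested and 3 passed, all higher, against the same shares of all tested genes. The mitotic cyclin genes Ccnb1 and Ccnb2 rose by 1.42 and 1.25 on the log2 scale and Ccnf, an F-box protein that carries a cyclin box, by 1.54. Ccna2 and Cdk1 had 0.04 and 0.20 and did not pass (adjusted p = 0.890 and 0.342, edgeR). The median log2 fold change over these 5 genes was 1.25, against -1.24 for the G1 members.

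Downstream of the G1 kinases, 7 of 13 genes of the RB and E2F family passed, 4 higher and 3 lower in mESCs, a share near the 47.9% of all tested genes. Rb1 rose by 1.87 on the log2 scale at a low level, with 2.20 ± 1.29 CPM in MEFs and 8.01 ± 4.86 CPM in mESCs (mean ± SD of 4 and 3 libraries), and its groups overlapped. Its relative Rbl2 fell, with a mean of 3.22 CPM in MEFs and 0.794 CPM in mESCs, and the E2F genes E2f6 and E2f7 fell by 1.37 and 0.87. E2f5 rose by 1.15 and Tfdp2, a dimer partner of E2F factors, by 1.69. E2f4 and E2f8 had 0.50 and 0.80 and did not pass (adjusted p = 0.104 and 0.103, edgeR). Of 15 genes that act on CDK2 or on cyclin turnover, 7 passed, 5 higher and 2 lower, also near the 47.9% of all tested genes. Cdc25a, the phosphatase that activates CDK2, rose by 0.99 and Wee1, the kinase that inhibits CDKs, by 1.77. Usp28, a deubiquitinase that opposes FBXW7, rose by 3.12. Gsk3b, which phosphorylates cyclin D1 and marks it for degradation, fell by 1.13 and Cul1, the scaffold of SCF ubiquitin ligases, by 0.66.

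Cdkn1a was set beside other genes of the p53 pathway. Of 22 listed genes 21 were tested and 9 passed, 4 higher and 5 lower in mESCs, with a median log2 fold change of -0.02, where 47.9% of all tested genes passed. Plk2, Fas and Phlda3 fell with Cdkn1a, by 3.84, 3.37 and 2.22 on the log2 scale. Pmaip1, which encodes the cell death protein NOXA, rose by 2.69, Trp53inp1 by 2.14 and Mdm4, an inhibitor of p53, by 1.46. Trp53 itself rose by 0.61 and Mdm2, its ubiquitin ligase and target, had 0.29 and did not pass (adjusted p = 0.259, edgeR); both were named after their values were seen.

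Among 12 genes known to regulate Cdkn2a or Cdkn2b, 10 passed, 3 higher and 7 lower in mESCs. Of all tested genes 47.9% passed, 22.8% higher and 25% lower. The Polycomb genes Cbx7 and Ezh2, which repress the INK4 locus, rose by 4.42 and 1.32 on the log2 scale, whereas the Polycomb gene Bmi1, another repressor of the locus, fell by 1.86. Tbx3, a T-box repressor of p19Arf, rose by 1.83. The MEF libraries held at most 4 counts of Cbx7. Ets1, an activator of p16Ink4a, fell by 4.01, and the repressors Tbx2 and Twist1 fell by 3.97 and 3.63. The mESC libraries held only 0, 6 and 1 counts of Tbx2. Of the rest of the list, Kdm6b, Ets2 and Smad3 had lower CPM in every mESC library than in every MEF library. Dmtf1 had higher CPM in every mESC library, and Rnf2 overlapped between the cell types. Bmi1 and these genes were named after their values were seen. What part any listed gene has in the levels of Cdkn2a and Cdkn2b was not tested.

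**Figure D4:**
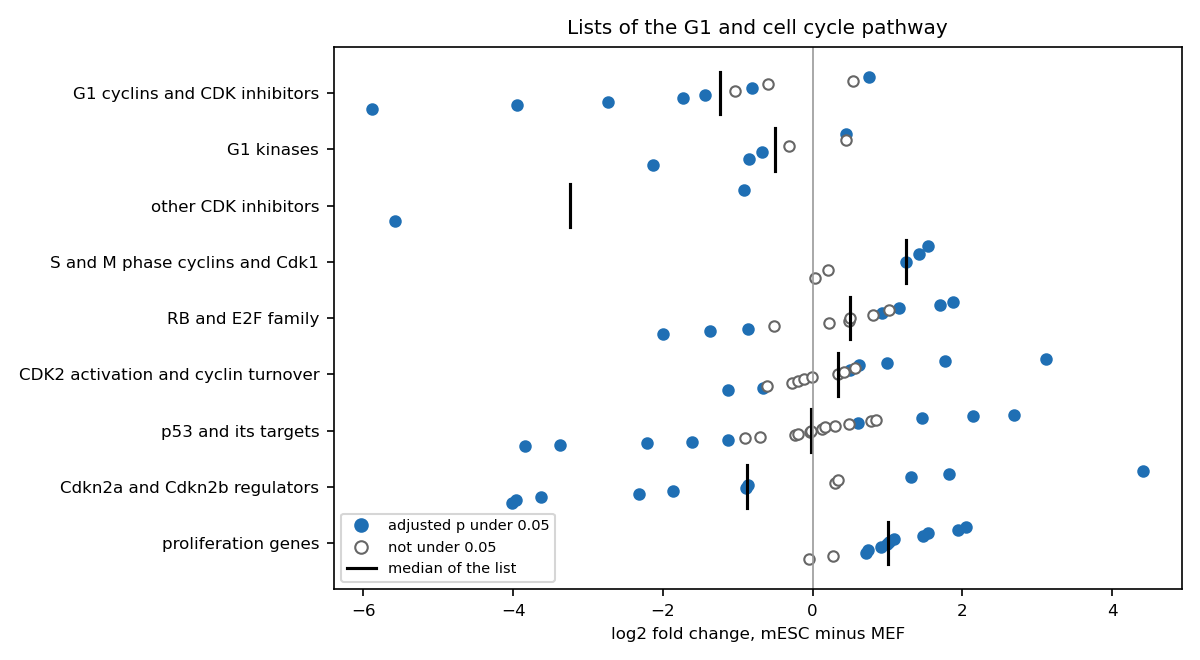
Log2 fold change, mESC minus MEF (horizontal axis), of every tested gene in the member list and the 8 pathway lists; filled points passed at an adjusted p under 0.05 (edgeR) and black lines mark list medians. The G1 members have a median of -1.24 and the cyclins of S phase and mitosis with Cdk1 one of 1.25.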

How the data were processed

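RNA of 4 MEF and 3 mESC samples was sequenced in 3′-biased libraries with molecular identifiers. The authors trimmed the demultiplexed reads and used STAR for alignment to mm10, Je for the removal of duplicated molecular identifiers and featureCounts for the assignment of uniquely mapped reads to exons. The deposited values are raw counts per gene. Annotation release and strand setting were not given in the sources used here. The labels' extraction text describes blood stem cells, whereas the cell type labels name MEFs and mESCs. Columns of the table give the cell type but are not tied to sample numbers, so libraries are named by their totals, and 0 columns were left unused. All column names of a cell type share the same stem, MEF1 or mESC1, whose meaning was not given. Libraries of one cell type differed by more than sampling noise (chi-square per degree of freedom 15.6 to 31.1, genes with at least 10 counts).

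Genes were tested by the quasi-likelihood method of edgeR 4.0.16 in R 4.3.3 after TMM scaling and filterByExpr. The fit held 7 libraries and no covariate. Adjusted p-values are Benjamini-Hochberg values over all tested genes with 0.05 as the threshold, and the standard error is the log2 fold change divided by the square root of F. Alternatives were DESeq2 1.42.0, library size alone, DESeq2's size factors, other filters, a fold change of 2, other log2CPM scales and leaving out each library. The code was tested on simulated data. The members and lists were chosen with earlier results of these data known. Named genes are all members, every gene of lists of up to 6 genes, and otherwise up to 3 genes per direction with the largest changes among those that passed. Other named genes were chosen after their values were seen. Intervals and the floor of 3 counts cover counting error or library spread only. Positions and overlaps are from GENCODE M21 on GRCm38.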

Additional observations from a re-analysis of the deposited data

Results flagged for a closer look

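Among the 4 MEF libraries, a single library stood apart from the others for 2 of 47 genes named here, where chance gives about 1 in 20, or 2.35. Ezh2 stood at 6.54 log2CPM in the deepest MEF library (11441278 counts) and at 5.86 to 5.93 in the others. Gsk3b stood at 8.04 log2CPM in the MEF library with 7312679 counts, against 8.39 to 8.41 in the others. None of the 10 members was among them. The 3 mESC libraries were too few for this rule, so the spread of Cdkn1b was not judged by it.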

How the results depend on the processing

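No paired analysis was possible because the columns of the count table carry no stated sample number. No member reversed its direction under the 13 alternatives to the fit. Against a fold change of 2, a stricter test by construction, 3991 of all genes, 4 of the members and 26 of the pathway genes passed in place of 7938, 7 and 52, and Ccne1 (0.76), Ccne2 (-0.81) and Cdkn2c (-2.74) lost their call at the same log2 fold change. Library size alone gave Ccnd3 (0.82) a call and took that of Ccne2 (-0.53), which follows from the scaling. It turned the split of all genes to 5180 higher and 3345 lower from 3785 and 4153. With no filter beyond 1 count Cdkn1b passed at -1.07 (adjusted p = 5.58e-08, edgeR), on the same counts and with overlapping cell types. This pass is not taken as a result, and its cause was not tested.

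When each library was left out, the threshold was passed by 7032 to 7522 genes, 6 to 7 members and 46 to 52 pathway genes. The log2 fold changes ranged from -1.98 to -1.61 for Ccnd1, -5.97 to -5.82 for Ccnd2, 0.25 to 0.66 for Ccnd3, 0.62 to 0.81 for Ccne1, -0.97 to -0.68 for Ccne2, -1.61 to -1.33 for Cdkn1a, -1.78 to -0.60 for Cdkn1b, -0.71 to -0.45 for Cdkn2a, -4.13 to -3.78 for Cdkn2b and -4.23 to -2.16 for Cdkn2c. The ratio of Cdkn1a to Cdkn1b changed sign, from -0.09 with all libraries to between -0.71 and 0.56, with 0.08 without the MEF library of 6528643 counts and 0.56 without the mESC library of 8057985 counts. Of the differences in log2CPM, 8 of 30 moved by more than the spread between libraries. With log2(CPM + 1) over library totals, which drops TMM as well, they were -5.57 for Ccnd2, 1.04 for Ccne1, -1.16 for Cdkn1a, -0.25 for Cdkn2a and -3.48 for Cdkn2b, and without TMM -5.59, 1.05 and -1.17 for Ccnd2, Ccne1 and Cdkn1a. Depth limits Cdkn2c and Cdkn2a, with at most 52 and 117 counts in a library.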
